A study of Rattus norvegicus with 9 samples.

Results

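The oldest muscle of the series was set against the youngest: 3 arrays of posterior cricoarytenoid from rats aged 30 months and 3 arrays of the same muscle from rats aged 6 months. They were chosen by the age in their titles and are 6 of the 9 arrays, the other 3 being of 18 months. Each array was hybridized with RNA combined from 4 animals, so the spread within an age is a spread between pools. No label used here names a strain, a sex or a treatment. The array carries 8799 probe sets, each a group of short probes against 1 transcript sequence. After 59 controls were left out, 8740 remained, of which the 5244 with the stronger mean signal were tested.

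The posterior cricoarytenoid is the abductor of the larynx, and its rhythmic contraction widens the glottis with each breath. Its fibres, like those of other skeletal muscles, are held in a connective tissue of fibrillar collagen, which fibroblasts secrete and cross-link and which matrix proteases and their inhibitors turn over. Interferon signalling switches on transcription factors such as IRF7 and genes of peptide presentation on class I molecules, in muscle as in most tissues.

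Muscle transcripts gave the strongest signals on all 6 arrays, with the skeletal actin *Acta1* between 27892.0 and 36528.7 and the creatine kinase *Ckm* between 33084.5 and 48474.7. The 2% trimmed mean lay between 500.868 and 500.968 on these arrays. For *Gapdh* the 3' signal divided by the 5' signal, a sign of RNA integrity, was 1.03 to 1.09 at 6 months and 1.10 to 1.15 at 30 months. In this ratio every array of 30 months lay above every array of 6 months. Its part in the changes was not tested. The same ratio for actin was 0.94 to 1.15 at 6 months and 0.92 to 1.02 at 30 months, which overlapped. Cartilage markers did not pass the signal filter, 0 of 4 on the array. Thyroglobulin (*Tg*), the thyroid hormone precursor, read 43.0, 108.6 and 108.5 at 6 months and 30.2, 83.3 and 555.2 at 30 months. Replicate 3 of 30 months stood apart in *Tg* among these arrays, and an array of 18 months read 628.2. Without replicate 3 of 30 months 0 probe sets passed the adjusted threshold on either scaling (limma). After cyclic loess 263 were then higher and 228 lower at an unadjusted p under 0.05. The calls also fell to 0 without replicate 2 of 6 months or replicate 2 of 30 months. Values without replicate 3 of 30 months are given for most called genes and for several lists.

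Fibrillar collagen genes were lower at 30 than at 6 months by more than the spread between pools. *Col1a2*, the α2 chain of type I collagen, read 1364.7, 1196.2 and 1085.6 at 6 months and 496.8, 435.7 and 437.5 at 30 months. Every array of 30 months lay below every array of 6 months, a separation that 14.8% of all tested probe sets showed in that direction and 7.4% in the other. After cyclic loess, a normalization that removes differences between arrays that depend on signal strength, these shares were 9.61% and 10.0%, or 19.7% together. On the authors' scaling its log2 change was -1.35 (SE 0.13, adjusted p = 0.00920, limma with Benjamini-Hochberg adjustment). After cyclic loess it was -1.31 (95% interval -1.61 to -1.02, adjusted p = 0.00873). *Col1a1*, the α1 chain of the same fibril, read 3139.4, 3152.8 and 2402.2 against 1384.6, 1198.6 and 1006.7, again without overlap. Its log2 change was -1.25 before and -1.26 after cyclic loess (SE 0.19, adjusted p = 0.0301).

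A second probe set of *Col1a1* also fell, by 1.33 after cyclic loess (adjusted p = 0.0300), and the other 2 had log2 changes of -0.99 and -1.20 without a call. *Col3a1*, the type III chain of the same tissue, read 3522.3, 2648.1 and 2127.7 at 6 months and 1227.0, 960.4 and 825.8 at 30 months. *Col5a2*, of the type V collagen on which fibrils start, read 573.9, 496.0 and 387.7 against 234.3, 220.4 and 192.7. Neither gene's arrays overlapped between ages, but the calls depended on the scaling. *Col3a1* passed on the authors' scaling (-1.42, adjusted p = 0.0418) and not after cyclic loess (-1.42, adjusted p = 0.0599), and *Col5a2* passed at -1.05 (adjusted p = 0.0389) and not at -0.97 (adjusted p = 0.0586). Without replicate 3 of 30 months the cyclic loess changes were -1.28 for *Col1a2* (adjusted p = 0.0638), -1.15 for *Col1a1* and -1.29 for *Col3a1*. Mean signals of these genes at 18 months were already nearer those of 30 than of 6 months. For *Col1a2* the means at 6, 18 and 30 months were 1215.5, 545.7 and 456.7. The strongest *Col1a1* probe set had 2898.1, 1373.6 and 1196.6, *Col3a1* 2766.0, 1180.6 and 1004.4, and *Col5a2* 485.9, 247.8 and 215.8. The plot of signals by array shows these genes at its foot.

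**Figure D1:**
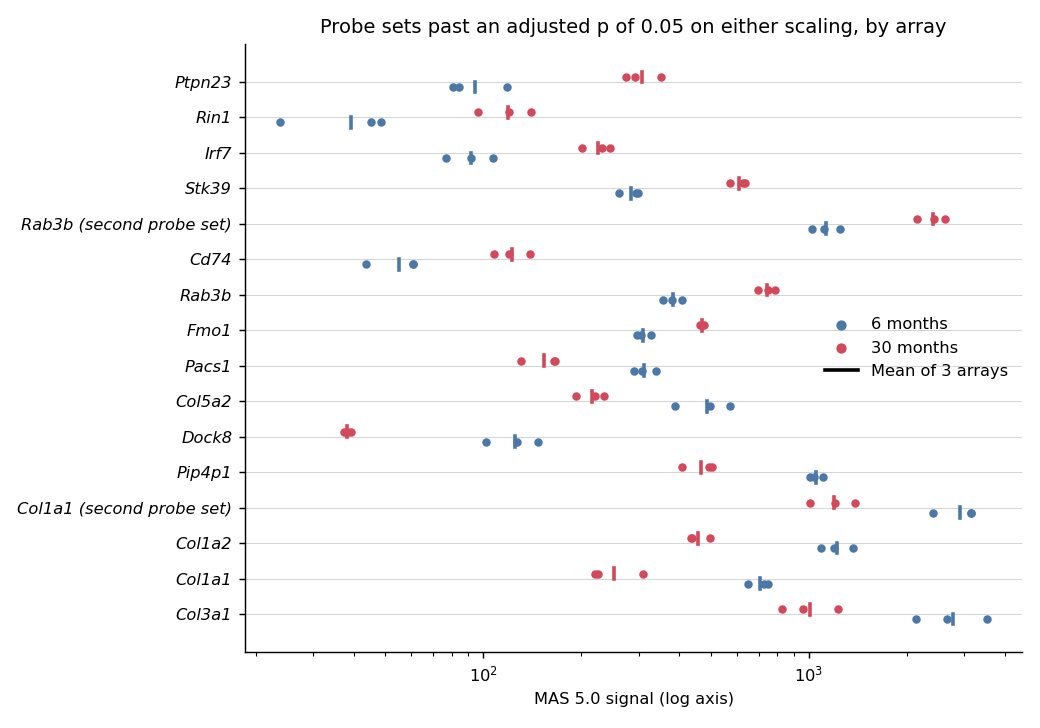
MAS 5.0 signals on a log axis for the 16 probe sets with a gene symbol past an adjusted p of 0.05 on either scaling, ordered by log2 change after cyclic loess. Points are single arrays of 6 months (blue) and 30 months (red), and bars are means of 3 arrays. In none of these probe sets did the ages overlap, and *Col1a2* at 30 months sits between 435.7 and 496.8, below the lowest array of 6 months at 1085.6.

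The list of fibrillar collagens and fibril assembly held 20 genes, of which 18 were on the array and 17 passed the signal filter. All 30 lists were chosen with earlier results of these data known, so their counts are a description and no test. After cyclic loess 16 of the 17 lay below 0, with a median log2 change of -0.24, against 49.8% of all tested probe sets below 0 and a median of 0.00071. Past the adjusted threshold 2 were lower and 0 higher, and on the authors' scaling 4 were lower, where 0.172% of all probe sets were called lower. Outside the collagen chains 11 of 12 members lay below 0. Among these *Lum*, a proteoglycan that spaces fibrils, had a log2 change of -0.42 (SE 0.15) and *Plod2*, a lysyl hydroxylase of collagen, one of -0.33 (SE 0.11), both at an unadjusted p under 0.05 and neither past the adjusted threshold. *Serpinh1*, the collagen chaperone HSP47, was at -0.24 (SE 0.15), and *P4hb* at -0.0056. Without replicate 3 of 30 months the median was -0.23, with 13 of 17 below 0.

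Genes of the basement membrane, glycoproteins and elastic fibre had a median of -0.22, with 10 of 13 below 0 and 0 called. Fibronectin, *Fn1*, read 1278.6, 1224.7 and 852.2 at 6 months and 788.8, 628.6 and 470.0 at 30 months (log2 change -0.78, SE 0.22). Its arrays did not overlap, and the elastin gene *Eln* (-0.46), *Col15a1* (-0.37) and the laminin chain *Lamc1* (-0.36) also lay below 0 at an unadjusted p under 0.05. Matrix proteases and inhibitors had a median of -0.22, with 7 of 12 below 0 and 0 called. Leaving out replicate 1 of 6 months moved that median to -0.10, and leaving out 30-month replicate 2 moved it to -0.085. The inhibitor *Timp2* read 1884.3, 1589.1 and 1665.1 against 1106.1, 1149.4 and 990.7 (-0.64, SE 0.13, adjusted p = 0.129). The gelatinase *Mmp2* (-0.50, SE 0.12) and the inhibitor *Timp1* (-0.43, SE 0.12) lay on the same side without a call, and *Plaur*, the urokinase receptor, lay above 0 at 0.74 (SE 0.27). The other tested probe set of *Mmp2* was at -0.18 (SE 0.17), and its ages overlapped after cyclic loess.

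Markers of fibroblasts, the main source of these collagens, were lower as a list that largely repeats it. Of 8 markers 7 were tested, 5 of them also in the fibrillar collagen list, and all 7 lay below 0 after cyclic loess with a median of -0.42. Their summed signal was 16183 to 20238 at 6 months and 13257 to 13396 at 30 months, and none of the tested markers was at 0. The remaining pair were the growth factor receptor *Pdgfra* at -0.11 and the surface glycoprotein *Thy1* at -0.012. In a whole muscle, fewer cells of a type and less RNA per cell cannot be told apart, and the part of fibroblast number in the collagen values was not tested.

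*Irf7*, the transcription factor that amplifies type I interferon responses, rose in the oldest muscle. It read 76.8, 107.1 and 91.7 at 6 months and 244.3, 230.7 and 201.4 at 30 months. All 3 arrays of 30 months lay above those of 6 months. The log2 change was 1.06 on the authors' scaling (SE 0.14, adjusted p = 0.0184) and 1.19 after cyclic loess (95% interval 0.90 to 1.47, adjusted p = 0.00873). Its other probe set, from the same sequence, had a log2 change of 0.64 (SE 0.21, adjusted p = 0.356). Without replicate 3 of 30 months *Irf7* had a log2 change of 1.27 (adjusted p = 0.0562).

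The other genes of the interferon response list lay mostly on the same side. Of 23 listed genes 16 were on the array and 11 were tested. The list was chosen with earlier results of these data known, so its counts are no test. After cyclic loess 10 of 11 lay above 0, with a median of 0.43, against 50.2% and 0.00071 over all tested probe sets. On the authors' scaling 9 lay above 0 with a median of 0.37. Of the 11, 6 were higher at an unadjusted p under 0.05, where 6.31% of all probe sets were, and 1, *Irf7*, passed the adjusted threshold, where 0.172% did. *Oas1a*, which makes the 2',5'-oligoadenylates that activate RNase L, read 453.3, 616.6 and 473.2 against 654.2, 747.1 and 780.6 (log2 change 0.52, SE 0.15, adjusted p = 0.313). The ages did not overlap. *Ifngr1*, a chain of the interferon-γ receptor, was at 0.59 (SE 0.18), the transcription factor *Stat3* at 0.66 (SE 0.24), *Irf1* at 0.39 (SE 0.15) and *Irf3* at 0.43 (SE 0.17). The antiviral GTPase *Mx1* read 205.5, 75.5 and 156.8 against 220.6, 147.8 and 216.5, which overlapped, and *Irf8* was below 0 at -0.065.

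Peptide presentation by class I molecules and the immunoproteasome, which cuts the peptides, showed the same side without a called gene. All 11 measured genes of the list were tested. After cyclic loess 10 lay above 0, against 50.2% of all tested probe sets, with a median of 0.29 (0.22 on the authors' scaling). At an unadjusted p under 0.05 there were 5 higher and 0 lower, where 6.31% and 4.71% of all probe sets were. *Psmb9*, an immunoproteasome subunit, read 83.1, 84.7 and 85.7 against 196.4, 129.8 and 117.8 (0.75, SE 0.17, adjusted p = 0.213). Its ages did not overlap. The class I genes *RT1-CE16* (0.43, SE 0.16) and *RT1-CE12* (0.37, SE 0.15), the peptide transporter *Tap1* (0.30, SE 0.13) and the proteasome activator *Psme2* (0.29, SE 0.13) were the other 4. Both *RT1* probe sets are of a kind designed against a gene family, so signal from other class I genes cannot be separated. The medians over fits that each left out 1 of the 6 arrays were 0.18 (without replicate 1 of 30 months) to 0.37 for class I and 0.34 to 0.50 for the interferon list.

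Promoters of these 2 lists are shown because genes answering to interferon often carry an element that interferon-activated factors bind, whose core is 2 copies of GAAA separated by any 2 bases. RefSeq promoters of the rat assembly GRCr8, 250 bases before to 50 after each gene's start, were searched on both strands. The motif was in 4 of 11 promoters of the interferon list (*Irf7*, *Oas1a*, *Eif2ak2* and *Rsad2*) and in 6 of 11 of the class I list (*B2m*, *Psmb8*, *Psme2*, *RT1-S3*, *Tap1* and *Tap2*). It was in 3.77% of 27457 promoters and in 3.1% of the 2613 promoters of tested genes. The lists were drawn from known interferon targets, so this describes them and is no test. The sequences below run 5′ to 3′ on the gene's strand, with the match in capitals, and a match on the opposite strand reads as 2 copies of TTTC separated by 2 bases. *Irf7* lies at chr1:205799974-205800273 on the minus strand, *Oas1a* at chr12:41330216-41330515 on the plus strand with 2 overlapping matches, *Psme2* at chr15:33052702-33053001 on the minus strand and *Tap1* at chr20:4668494-4668793 on the minus strand.
Irf7: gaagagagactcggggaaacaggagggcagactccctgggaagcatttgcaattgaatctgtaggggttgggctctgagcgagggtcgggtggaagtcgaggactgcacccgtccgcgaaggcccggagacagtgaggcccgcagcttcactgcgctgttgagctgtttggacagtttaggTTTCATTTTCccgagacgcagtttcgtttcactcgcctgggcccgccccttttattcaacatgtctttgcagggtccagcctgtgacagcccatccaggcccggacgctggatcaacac
Oas1a: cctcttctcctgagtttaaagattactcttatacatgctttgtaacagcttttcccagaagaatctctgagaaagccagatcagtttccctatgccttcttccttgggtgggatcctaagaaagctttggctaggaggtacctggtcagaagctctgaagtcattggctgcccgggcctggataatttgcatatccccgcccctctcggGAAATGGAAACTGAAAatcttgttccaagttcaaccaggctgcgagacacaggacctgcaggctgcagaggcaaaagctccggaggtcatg
Psme2: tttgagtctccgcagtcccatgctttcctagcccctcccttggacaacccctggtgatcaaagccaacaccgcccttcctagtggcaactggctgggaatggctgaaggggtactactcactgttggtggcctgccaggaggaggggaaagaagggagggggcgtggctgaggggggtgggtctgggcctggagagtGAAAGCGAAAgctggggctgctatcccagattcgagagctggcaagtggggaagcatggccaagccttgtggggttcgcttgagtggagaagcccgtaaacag
Tap1: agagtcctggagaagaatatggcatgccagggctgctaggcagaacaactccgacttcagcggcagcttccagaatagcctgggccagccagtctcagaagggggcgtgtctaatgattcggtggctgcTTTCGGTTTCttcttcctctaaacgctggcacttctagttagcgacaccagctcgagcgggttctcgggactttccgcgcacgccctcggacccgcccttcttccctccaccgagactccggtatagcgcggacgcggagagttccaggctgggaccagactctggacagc
Genes with a match had log2 changes of many sizes. *Irf7* (1.19) and *Oas1a* (0.52) have it, and so do *Eif2ak2* (0.13), *Rsad2* (0.20) and *Tap2* (0.074), whose ages overlapped. The fibrillar collagen list had it in 1 of 12 promoters.

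**Figure D2:**
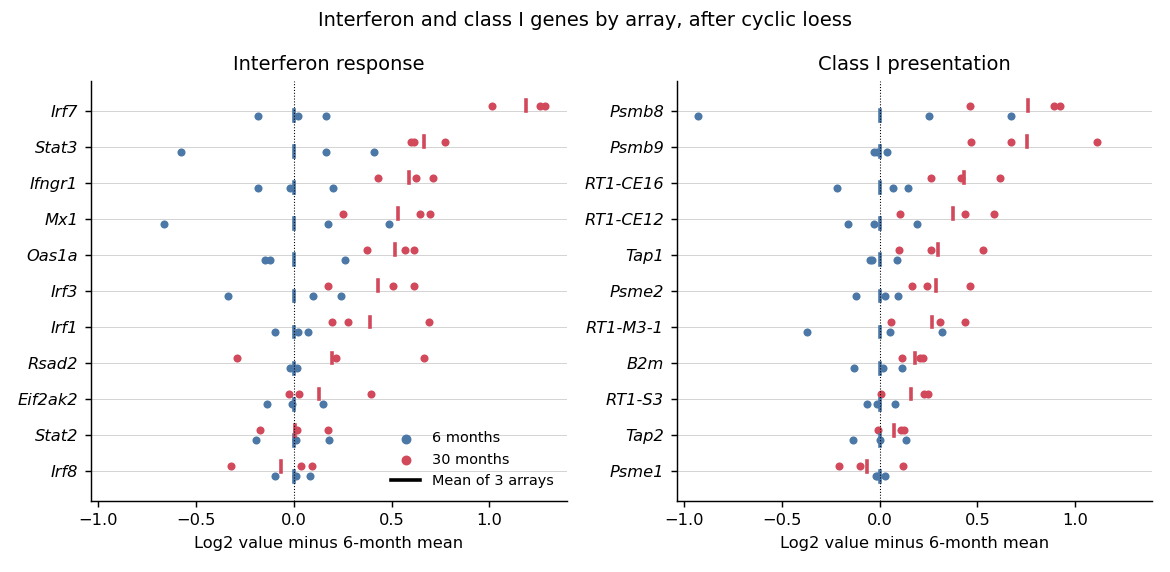
Log2 values after cyclic loess, minus the gene's mean at 6 months, for the 11 tested genes of the interferon list (left) and of the class I list (right). Points are single arrays of 6 months (blue) and 30 months (red), and bars are means of 3 arrays. The 30-month mean lies right of 0 for 10 of 11 genes in each panel, from *Irf7* at 1.19 to *Irf8* at -0.065 on the left.

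Class II presentation did not show this side as a list. After cyclic loess 6 of 9 genes lay above 0 with a median of 0.045, and on the authors' scaling 4 did with a median of -0.013. *Cd74*, the invariant chain that guides class II molecules, rose in 1 of its 4 probe sets, which read 60.7, 60.9 and 43.7 at 6 months and 108.0, 139.0 and 120.3 at 30 months (0.98, SE 0.13, adjusted p = 0.0170). The other 3 had log2 changes of 0.47, 0.67 and 0.74 without a call, so all 4 lay on 1 side. The called probe set without 30-month replicate 3 was at 1.01 (adjusted p = 0.0750). It passed the signal filter through its 30-month arrays, with mean signals of 55.1 at 6, 39.5 at 18 and 122.4 at 30 months. Without the filter its adjusted p was 0.0537 on the authors' scaling (limma), against 0.0319 with it. The list's median ranged from -0.028 to 0.15 with 1 array left out. The peptide editor *RT1-DMb* was at 0.44 (SE 0.11, adjusted p = 0.260), and the class II chain *RT1-Da* at -0.12.

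Lymphocyte markers had low signals at both ages, and macrophage markers did not move together. The summed signal of the 3 tested lymphocyte markers was 237 to 327 at 6 months and 269 to 314 at 30 months, with 2 of 3 above 0. The common leukocyte gene *Ptprc* read 125.7, 21.3 and 45.6 against 95.2, 73.8 and 88.9 in its strongest probe set. The 2 tested macrophage markers summed to 747 to 936 at 6 months and 826 to 1093 at 30 months, with *Lyz2* at 0.42 and *Cd14* at -0.49. No tested marker of either list was at 0, and their part in the immune values was not tested.

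In the list of vesicle traffic and small GTPases 2 of 39 tested genes passed the adjusted threshold, both higher, where 0.172% of all probe sets were called higher. This list too was chosen with earlier results of these data known, so the count is no test. *Rab3b*, a GTPase of regulated secretion, read 1246.2, 1023.8 and 1114.2 at 6 months and 2147.6, 2425.6 and 2612.4 at 30 months. Both of its probe sets rose, by 1.06 (SE 0.12, adjusted p = 0.00937) and 0.95 (SE 0.10, adjusted p = 0.00873) after cyclic loess. They were designed on the same sequence, so they are not separate measurements. Their mean signals at 18 months, 2430.7 and 838.1, were close to those at 30 months, 2395.2 and 743.1. *Rin1*, an exchange factor for Rab5 and a Ras effector, read 23.8, 45.2 and 48.5 against 96.2, 120.0 and 140.4 (1.25, SE 0.17, adjusted p = 0.0241). In neither gene did the ages overlap. *Rin1* passed the signal filter through its arrays of 18 and 30 months, with mean signals of 39.2 at 6, 127.1 at 18 and 118.9 at 30 months. Without the filter its adjusted p was 0.0703 on the authors' scaling (limma), against 0.0336 with it. With 30-month replicate 3 left out, the log2 changes were 0.99 and 0.91 for *Rab3b* (adjusted p = 0.0703 for both) and 1.17 for *Rin1* (adjusted p = 0.0908). *Madd*, an exchange factor for Rab3 proteins, was at 0.92 (SE 0.19) and the clathrin light chain *Cltb* at 0.51 (SE 0.11), both without overlap and without a call. The other tested probe set of *Cltb*, from the same sequence, was at 0.12 (SE 0.13), and its ages overlapped. Over the 39 genes the median was 0.034 after cyclic loess and -0.0072 before, with 22 and 19 genes above 0, and it was -0.015 after cyclic loess without replicate 1 of 6 months.

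Among the other calls, *Fmo1*, a flavin monooxygenase of drug metabolism, passed only after the shift was removed. It read 304.2, 327.8 and 297.1 at 6 months and 470.1, 461.7 and 474.7 at 30 months, a tight pair of groups. Its log2 change was 0.55 (adjusted p = 0.0742) before and 0.62 (SE 0.095, adjusted p = 0.0328) after cyclic loess. *Pip4p1*, a phosphoinositide phosphatase of late endosomes, had 1 tested probe set, which read 1103.1, 1033.7 and 1005.7 against 502.9, 406.2 and 493.5 (-1.08, SE 0.16, adjusted p = 0.0273). The signals of 30 months were all under those of 6 months. When 30-month replicate 3 was left out, *Fmo1* was at 0.61 (adjusted p = 0.135) and *Pip4p1* at -1.12 (adjusted p = 0.0908). *Pacs1*, a sorting adaptor, and *Dock8*, an exchange factor for Cdc42, passed before (-0.89 and -1.15) and not after cyclic loess (-0.79, adjusted p = 0.0560, and -0.997, adjusted p = 0.118). The remaining called probe sets were *Stk39* and *Ptpn23*, described with the agreement between probe sets, and a pair without a gene symbol, 1 higher and 1 lower.

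Further genes ranked high by p without overlap between ages and without a call. On the higher side were the atypical protein kinase C *Prkcz* (0.94, SE 0.18), the glutathione peroxidase *Gpx2* (0.82, SE 0.16), the deglycating kinase *Fn3k* (0.53, SE 0.13) and the protease inhibitor *Spink8* (0.53, SE 0.12), beside *Madd*, *Cltb* and *Psmb9*. On the lower side were the histone acetyltransferase *Kat5* (-1.54, SE 0.33), the organic anion transporter *Slc22a6* (-1.27, SE 0.29), the neurite growth factor *Nrn1* (-0.95, SE 0.21) and *Zfp697* (-0.69, SE 0.18), beside *Timp2* and *Mmp2*. The transferrin receptor *Tfrc*, which takes up iron, read 170.7, 364.7 and 287.6 at 6 months and 116.0, 95.1 and 70.5 at 30 months (-1.11, SE 0.27, adjusted p = 0.252). The arrays of 6 months spread widely in this gene but stayed above those of 30 months.

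Over all 5244 probe sets the authors' scaling left a difference between ages that depended on signal strength. The tested probe sets were cut into 5 equal groups by mean signal. In the weakest group the array medians were 101.1, 101.8 and 96.4 at 6 months and 87.6, 83.0 and 90.9 at 30 months. In the strongest group they were 2809.5, 2797.4 and 2813.7 against 2848.0, 2889.9 and 2869.2. The 3 oldest pools were thus all lower among weak and all higher among strong probe sets. The median log2 change ran from -0.15 in the weakest group through -0.13, -0.065 and -0.025 to 0.044 in the strongest. After cyclic loess the 5 medians lay between -0.0085 and 0.010.

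**Figure D3:**
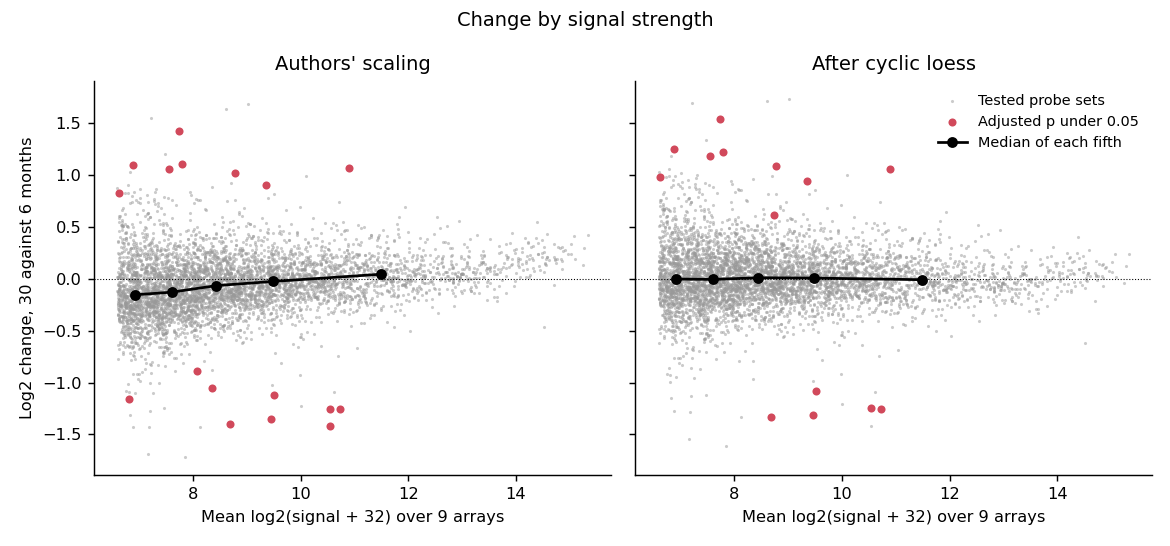
Log2 change from 6 to 30 months against mean log2(signal + 32) over the 9 arrays, for 5244 tested probe sets on the authors' scaling (left) and after cyclic loess (right). Red points passed an adjusted p of 0.05, and the black line joins the medians of 5 equal groups by signal. The line climbs from -0.15 to 0.044 on the left and stays within -0.0085 and 0.010 on the right.

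Removing the shift changed the balance between directions more than the number of calls. On the authors' scaling 8 probe sets were higher (0.153%) and 9 lower (0.172%) at an adjusted p under 0.05, and after cyclic loess 9 were higher (0.172%) and 5 lower (0.0953%), with 13 shared between the scalings. At an unadjusted p under 0.05 the split was 219 higher (4.18%) and 458 lower (8.73%) before, and 331 higher (6.31%) and 247 lower (4.71%) after. In the weakest group this split was 39 higher and 137 lower before, against 82 and 58 after. In the strongest group it was 81 and 29 before, against 55 and 42 after. Changes of at least 0.5 in size numbered 134 higher and 239 lower before, against 199 and 113 after. A ratio of mean signals over 1.7 without overlap was found for 38 probe sets higher (0.725%) and 79 lower (1.51%). On the authors' scaling 41.2% of all probe sets lay above 0 and 58.8% below. Changes of at least 1 numbered 11 and 26 before, against 16 and 16 after. The lower and upper quartiles of all changes were -0.13 and 0.16 after cyclic loess, close in size to the median standard error of 0.15. The count of calls was 0 on either scaling without replicate 2 of 6 months or replicates 2 or 3 of 30 months.

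The fast and slow fibre lists, of strongly expressed genes, had lower medians after cyclic loess. A rise of strongly expressed genes and a shift of strong signals cannot be told apart here. The fast fibre list had 11 of 12 genes above 0 and a median of 0.19 on the authors' scaling, and 9 of 12 and 0.034 after cyclic loess. Among fast myosin heavy chains *Myh2* read 9770.2, 9279.7 and 9279.8 at 6 months and 11920.8, 11744.8 and 13460.1 at 30 months, without overlap, with a log2 change of 0.39 before and 0.27 after (SE 0.11, adjusted p = 0.397). *Myh1* was at 0.37 after cyclic loess (SE 0.12), *Myh4* at 0.031 and *Myh13*, the superfast myosin of eye and laryngeal muscles, at -0.14. *Myh7*, the slow myosin, had the largest change of the myosins with a narrow spread: 1 probe set read 654.7, 626.7 and 703.6 against 1369.0, 1314.2 and 1342.1, without overlap. Its log2 change was 1.00 (SE 0.19, adjusted p = 0.107), and that of the stronger probe set, of a family type, was 0.55 (SE 0.17). *Myh8*, the neonatal myosin, had a log2 change of -1.61 with an SE of 0.73 (adjusted p = 0.459), and it is named after its value was seen. The slow fibre list had 7 of 9 genes above 0 on both scalings, with medians of 0.093 and 0.070. With 1 array left out, the cyclic loess medians ranged from -0.00085 to 0.083 for the fast list and from -0.0058 to 0.19 for the slow list, both lowest without replicate 3 of 6 months.

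Medians of the energy metabolism and ribosomal protein lists were also lower after cyclic loess, though by little for creatine. Glycolysis and glycogen had medians of 0.10 before and 0.055 after, and the citric acid cycle -0.011 and -0.055. Of 27 respiratory chain and ATP synthase genes 22 lay above 0 before and 14 after cyclic loess, with medians of 0.11 and 0.010, and 0 were called on either. *Cox4i1*, a subunit of complex IV, was at 0.19 before and 0.04 after. Of 36 cytosolic ribosomal protein genes 31 lay above 0 before and 20 after, with medians of 0.067 and 0.024. Fatty acid uptake and oxidation had medians of 0.10 and 0.034, with *Ucp2* at 0.38 (SE 0.13) after cyclic loess. The creatine list had medians of 0.10 before and 0.092 after, with 8 of 13 genes above 0 both times. Its strongest gene, *Ckm*, went from 0.42 (SE 0.11) to 0.24 (SE 0.094). With 1 array left out, the cyclic loess medians ranged from -0.014 to 0.034 for the respiratory chain, -0.0060 to 0.037 for ribosomal proteins, -0.029 (without replicate 3 of 30 months) to 0.12 for fatty acids and 0.028 (without replicate 2 of 30 months) to 0.10 for creatine.

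Genes of the neuromuscular junction, where motor nerve meets fibre, had 0 called, with 5 of 16 above 0 and a median of -0.049 on the authors' scaling and 8 of 16 and -0.033 after cyclic loess. Without replicate 3 of 30 months 5 of 16 lay above 0, with a median of -0.087, and without replicate 3 of 6 months the median was -0.11. The acetylcholine receptor δ chain *Chrnd* was at 0.36 (SE 0.13) and the foetal γ chain *Chrng* at -0.24 (SE 0.14). The neurotrophin receptor *Ntrk3* read 48.6, 58.1 and 39.4 against 96.1, 84.4 and 91.5, without overlap (0.76, SE 0.19, adjusted p = 0.260), and the GDNF receptor *Ret* was at -0.42 (SE 0.18). Markers of Schwann cells and nerve were below 0 in 5 of 6, with a median of -0.20, which was -0.077 without replicate 3 of 30 months. Their summed signal was 3045 to 3585 at 6 months and 2567 to 2929 at 30 months, none of the tested markers was at 0, and their part in the junction values was not tested. *Per2*, a repressor of the circadian clock, was at 0.92 (SE 0.23, adjusted p = 0.252) in a list of 8 clock genes with a median of 0.083, which ranged from -0.013 without replicate 1 of 6 months to 0.19 without replicate 3 of 30 months.

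Most of the 30 lists had medians near 0 once the shift was removed. After cyclic loess the interferon (0.43) and class I (0.29) lists had the highest medians, and the 3 matrix lists lay lowest, at -0.22 to -0.24. Medians changed sign between the scalings in 4 lists: p53 and apoptosis, class II presentation, vesicle traffic, and ion pumps. Iron handling had 0 of 7 genes above 0 before and 3 of 7 after, with medians of -0.13 and -0.018, the latter between -0.059 and 0.018 with 1 array left out. Heat shock proteins and chaperones (-0.042, 14 of 21 below 0) and the proteasome, ubiquitin and protease list (-0.039, 19 of 33 below 0) had 0 calls on either scaling. These medians ranged from -0.10 (without replicate 3 of 30 months) to -0.019 and from -0.049 to -0.015 with 1 array left out.

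**Figure D4:**
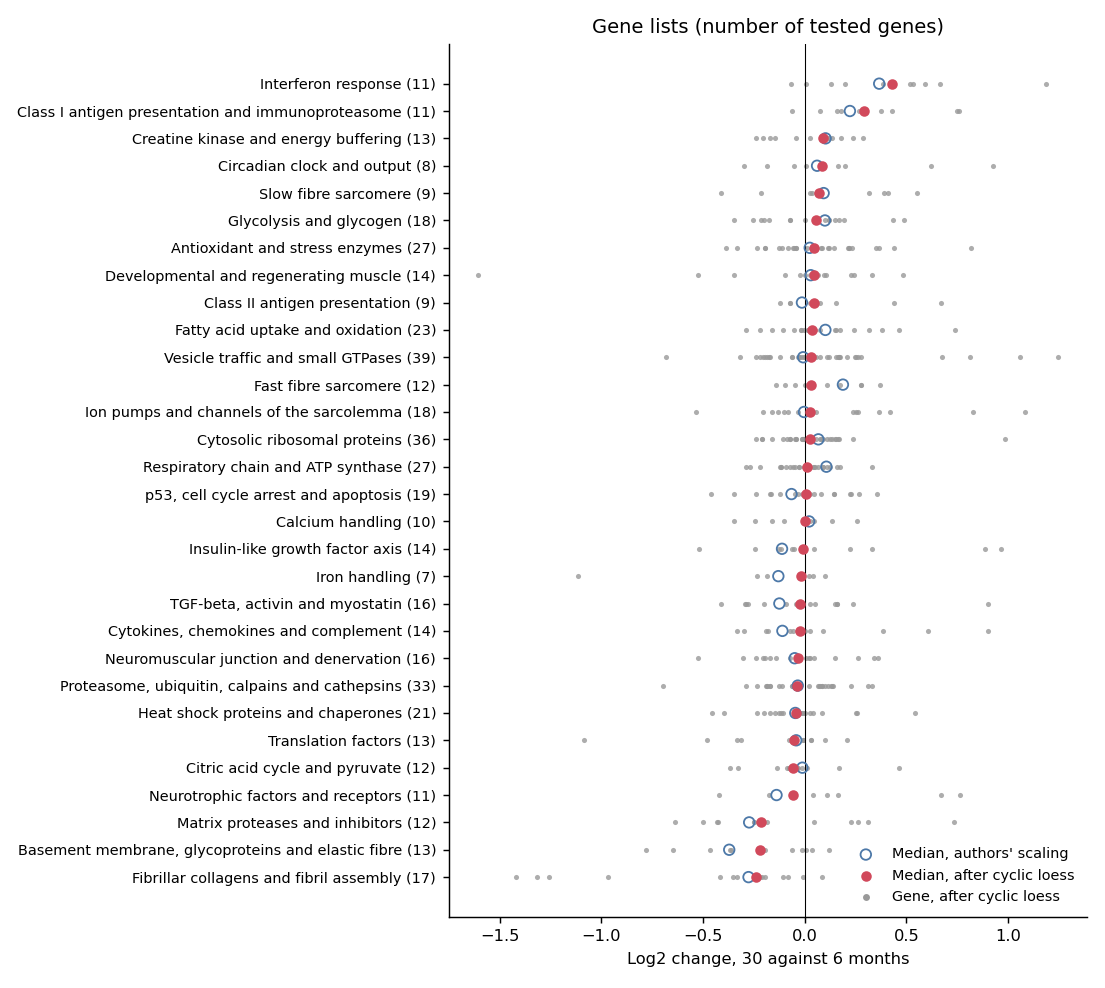
Log2 change from 6 to 30 months for the tested genes of 30 lists, with the number of tested genes in brackets. Grey points are genes after cyclic loess, red points their medians, and open blue circles the medians on the authors' scaling. The circles lie away from the red points in the fast fibre list (0.19 against 0.034) and the respiratory chain list (0.11 against 0.010), and the interferon list (0.43) and the fibrillar collagen list (-0.24) stand at the ends.

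Many genes are measured by several probe sets, which allows a check within the gene. Of 3163 tested genes with a symbol of their own, 898 had 2 or more tested probe sets. In 500 of these (55.7%) all probe sets lay on 1 side of 0 on the authors' scaling, and in 480 (53.5%) after cyclic loess. Over the 1529 pairs of probe sets of a gene, 58.0% lay on the same side after cyclic loess, and the changes correlated at r = 0.28. That correlation is across pairs, which share arrays and often genes, and is a description. Pairs designed on the same sequence lay on the same side in 60.9% of 509 (r = 0.32), and pairs on different sequences in 56.6% of 1020 (r = 0.26).

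Pairs were also described by the size of the change and by signal. Where the stronger probe set of a pair had a change of at least 0.5 in size, 48 of 69 pairs (69.6%) lay on the same side. Where it was under 0.25, 56.0% of 1202 pairs did. Among pairs whose weaker member was above the median of all weaker members r was 0.42, and among the others 0.17, but the share on the same side was 58.8% and 57.2%. For different sequences that share was 56.4% and 56.7%. The difference between the 2 changes of a pair was also fitted with limma, a test chosen after the data were seen. Of 1529 differences 137 had an unadjusted p under 0.05 (8.96%) and 0 passed the adjusted threshold. The smallest adjusted p was 0.0656, for the antioxidant regulator *Nfe2l2*, with log2 changes of -0.21 and 0.71.

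All tested probe sets of *Col1a1* and *Col3a1* lay below 0, although not all were called. *Col1a1* had 4 between -0.99 and -1.33, and the difference between the highest and the lowest of these was 0.34 (SE 0.21, adjusted p = 0.674). *Col3a1* had 2, at -1.42 and -0.91, which differed by 0.50 (SE 0.15, adjusted p = 0.433). The 2 of *Rab3b* differed by 0.11 (SE 0.12), and those of *Irf7* by 0.54 (SE 0.26, adjusted p = 0.597). In each of these 2 genes both probe sets are from the same sequence.

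Other calls rested on 1 probe set of several. The probe set of *Stk39*, a kinase that regulates ion cotransporters, that rose read 293.9, 260.7 and 299.1 at 6 months and 571.5, 634.6 and 628.3 at 30 months (1.08, SE 0.14, adjusted p = 0.0170). Its other 2 were at 0.17 and -0.53, and the widest difference was 1.61 (SE 0.29, adjusted p = 0.197). The called probe sets of *Stk39* and *Ptpn23* without 30-month replicate 3 were at 1.07 and 1.62 (adjusted p = 0.0821 for both). For *Ptpn23*, a phosphatase of endosomal sorting, the called probe set read 80.6, 84.4 and 118.5 against 293.0, 350.9 and 274.7 (1.54, SE 0.22, adjusted p = 0.0253). Its other probe set, from the same sequence, read 110.9, 187.5 and 102.6 against 90.2, 73.2 and 244.5, which overlapped (0.061, SE 0.32). For *Dock8* the lower probe set, at -0.997, stood against 0.20 and 0.27, and for *Pacs1* -0.79 stood against 0.016 and -0.078.

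Wide ranges occurred without calls too. For *Eif4ebp1*, a repressor of translation initiation, 1 probe set read 2448.5, 2006.9 and 2274.6 against 1147.2, 845.3 and 1141.4 (-1.09), and the other 2 were at 0.045 and 0.17. The largest difference of this gene was 1.26 in size (SE 0.30, adjusted p = 0.300). The lactase gene *Lct* had probe sets at -0.95 and 0.42, and the nitric oxide synthase gene *Nos2* at -0.41 and 0.57. Among the genes with the most probe sets, the 6 of the synaptic scaffold gene *Homer1* lay between -0.091 and 0.22. Those of the kinase gene *Mapk14* lay between -0.14 and 0.59, with 1 at an unadjusted p under 0.05.

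**Figure D5:**
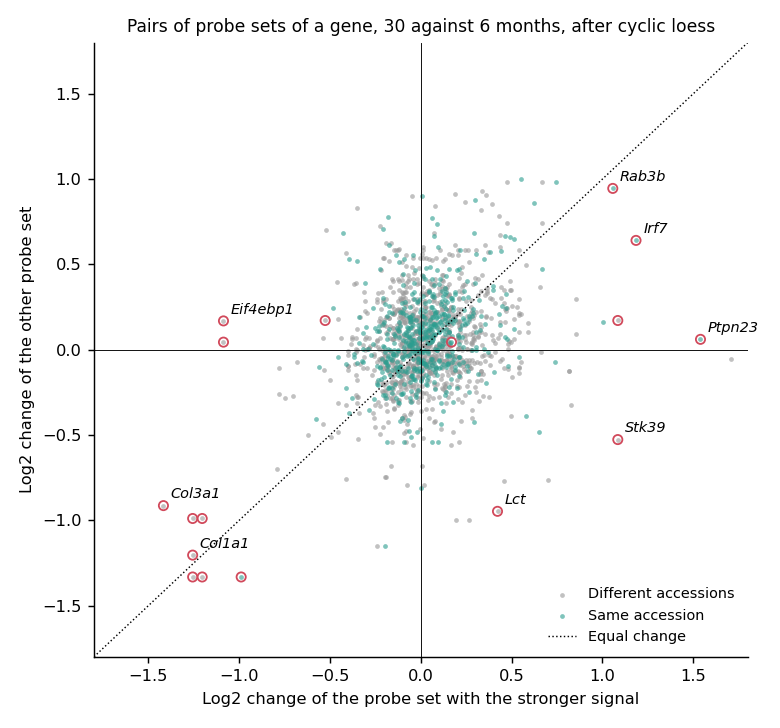
Log2 change after cyclic loess of the stronger probe set of a gene (horizontal) and of another probe set of that gene (vertical), for 1529 pairs of 898 genes. Green points are pairs from the same sequence accession, grey points pairs from different ones, the dotted line is equal change, and red circles mark the pairs of 8 named genes. Pairs of *Col1a1* and *Rab3b* lie near the line, whereas *Ptpn23* (1.54 and 0.061) and *Stk39* (1.08 and -0.53) lie far from it.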

How the data were processed

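The authors deposited signal intensity from Affymetrix Microarray Suite 5.0 on a linear scale, per the labels' protocols and the submitters' processing notes, and scaled the arrays globally, since their 2% trimmed means match. Detection calls were not used, and the fold rule of 1.70 in those notes served only to count probe sets past it. Signals were analysed as log2(signal + 32), and a fold change is on that scale. Control probe sets were left out, and the upper 60% by mean log2 over 9 arrays (6.60 or more) were tested.

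The fit used lmFit and eBayes of limma 3.58.1 (R 4.3.3), took in the 9 arrays with a mean for each age, and was run on the authors' scaling and after cyclic loess over all 8740 non-control probe sets. Ages share 1 estimate of the spread. P-values are two-sided, with Benjamini-Hochberg adjustment across the 5244 (threshold 0.05), and measure the spread between pools. The smallest p of an exact permutation test here is 0.1, so none was run. The scripts were tested on simulated data. Arrays with the same replicate number at both ages were not treated as pairs in the main fit. Their deviations correlated at 0.11, 0.044 and 0.035, against -0.14 to 0.11 for different numbers. Deviations of 3 arrays from their mean sum to 0, so these values cannot exclude a pairing.

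Names came from the platform's annotation, which gives a single symbol for 7006 probe sets, more than 1 for 308 and no symbol for 1426, and 6994 gene IDs matched the GRCr8 table. A gene was represented in lists by its strongest probe set. The members and the 30 lists were chosen with earlier results of these data known. Named genes were those past the threshold on either scaling, then, up to 14 per direction, those ranked by p without overlap and with a change of at least 0.5. From each list, up to 4 genes at an unadjusted p under 0.05 or otherwise those with the highest signal were named, and for probe sets the genes with the most probe sets or the widest range. *Acta1*, *B2m*, *Cd14*, *Chrng*, *Eif2ak2*, *Gapdh*, *Irf1*, *Irf3*, *Irf8*, *Lum*, *Lyz2*, *Mx1*, *Myh13*, *Myh4*, *Nfe2l2*, *P4hb*, *Pdgfra*, *Plod2*, *Psmb8*, *Psme2*, *Ptprc*, *RT1-Da*, *RT1-S3*, *Rsad2*, *Serpinh1*, *Tap2*, *Tg* and *Thy1* were named outside this rule, as markers, quality checks, promoter matches or genes chosen after their values were seen. Alternatives were another normalization, pseudocount, filter, set of arrays, block and omitted array.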

Additional observations from a re-analysis of the deposited data

How the results depend on the processing

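Counts are of probe sets past the adjusted p, higher and lower. The main counts of 8 and 9 became 5 and 8 without a filter, 9 and 5 after cyclic loess, and 6 and 5 with the replicate number as a block (replicate block), of which 11 were among the 17. Without a filter 13 were called, 8 of them among the 17. The adjusted p without a filter was 0.0176 for *Col1a2*, but 0.0559 and 0.0571 for *Col1a1*, 0.103 for *Col3a1* and 0.0819 for *Col5a2* (limma). By the same fit *Ptpn23* (0.0512), *Cd74* (0.0537), *Rin1* (0.0703) and *Dock8* (0.0849) also missed the threshold. Leaving out 1 array gave 0 to 5 higher and 0 to 5 lower. After cyclic loess, 9 and 5 became 8 and 8 with the 6 arrays only, and 0 to 8 and 0 to 4 with 1 array left out, these being alternatives chosen after the data were seen. Both counts were 0 by limma when the omitted array was 6-month replicate 2, 30-month replicate 2 or 30-month replicate 3, where 217 higher and 363 lower, 146 and 270, and 173 and 415 had an unadjusted p under 0.05 (after cyclic loess 308 and 212, 204 and 159, and 263 and 228). No named probe set changed sign under any alternative, 0 of 32. In each of them the ages did not overlap on either scaling, so leaving out an array could not turn the sign. This count is therefore no test.

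At an unadjusted p under 0.05 the 219 higher became 331 after cyclic loess. The 458 lower became 247 after cyclic loess, 268 after quantile normalization, 224 with the loess curve subtracted, 739 without a filter and 277 with the upper 40%. They ranged from 270 to 415 with 1 array left out. After cyclic loess these ranges were 204 to 308 higher and 159 to 228 lower.

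The median log2 change of -0.051 became 0.00071 after cyclic loess, -0.010 after quantile normalization, -0.0023 with the curve subtracted and -0.017 with the upper 40%. The weakest of 5 equal groups by signal, at -0.15, went to -0.0019, -0.025 and 0.0024 under the first 3 of these. The strongest, at 0.044, went to -0.0085, -0.0066 and -0.010, and ranged from 0.031 to 0.053 with 1 array left out. The share of genes with all probe sets on 1 side, 55.7%, was 66.8% with the upper 40% and 53.1% to 56.9% under the other alternatives. The cause of these differences was not tested. Having only 3 pools at each age limits the precision, and weak probe sets had the larger error, with a median SE of 0.20 in the weakest group against 0.12 in the strongest.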
